A study of Mus musculus with 8 samples.

Results

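Sterol and fatty acid synthesis genes were examined in mouse embryonic stem (ES) cells that had been exposed to the DNA-crosslinking drug cisplatin. The genes were taken by name, 18 for the sterol arm and 11 for the fatty acid arm. Each gene was read by 1 probe set, the brightest over all 8 arrays among those annotated to that gene alone. Of the 29 genes, 26 were measured this way among 17098 genes in all, 17 in the sterol arm and 9 in the fatty acid arm. The sterol gene Acat2 and the fatty acid genes Srebf1 and Scd2 were not analysed here. The treated group had received 2.5 µM cisplatin for 8 h and the control group dimethyl sulfoxide (DMSO), a common solvent, for 8 h, with 4 arrays each. Cells of both groups are labelled HPRT deficient, of strain C57BL/6 and at passages 19 to 22, and had been moved from feeder-coated to gelatin-coated plates before the experiment. The replicates are numbered 3 to 6 in each group, and nothing in the labels tells whether they were grown as separate cultures. The p-values thus measure the spread among these 8 arrays, part or all of which may be technical.

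All levels are log2 values, and a change is cisplatin minus control on that scale. Markers of the labelled cell type were bright, and some markers of other cell types were also above background. The mean over 9 ES cell markers lay between 11.00 and 11.06 on the cisplatin arrays and between 11.17 and 11.21 on the controls. Of the 9, 4 were lower with cisplatin, Nanog, Zfp42, Esrrb and Utf1, and none higher. Among all genes 7.69% were lower, and 10.9% of those above background in a group. The mean over 12 feeder fibroblast markers lay at 3.12 to 3.38 with cisplatin and at 3.12 to 3.25 in the controls, close to the 3.10 of background probes. The fibroblast markers Thy1, Mmp2 and Fbln2, 3 of the 12, were higher with cisplatin and none lower. Among all genes 11.6% were higher, and 16.6% of those above background in a group. Mmp2 stood above background, at a mean of 5.93 on the cisplatin arrays and 5.32 on the control arrays, and so did Thy1, at 5.23 and 4.62. Fbln2 stayed below background, at a mean of 2.30 on the cisplatin arrays and 2.10 on the control arrays. In all, 8 of the 12 were below background in both groups, among them Fbln2, Col1a2, Dcn and Lum. None of 10 endoderm markers passed limma's test, and 2 had an unadjusted p under 0.05, as did 31% of all genes tested. Of 9 mesoderm, ectoderm and trophoblast markers, whose mean lay at 4.81 to 4.93 with cisplatin and at 4.70 to 4.90 in the controls, 3 passed. Of all genes 19.3% passed, and 27.5% of those above background in a group. Neurod1 and Krt7 rose by 0.96 ± 0.15 and 0.41 ± 0.10, and Pax6 fell by 0.77 ± 0.16. Neurod1 was bright, at a mean of 9.40 with cisplatin and 8.44 in the controls. Tubb3 stood at 7.56 and 7.79 and Pax6 at 6.27 and 7.05, and 1 of the 9 was below background in both groups. The part of these markers in the results below was not tested. Hprt stood at 4.69, 5.03, 4.91 and 4.74 on the cisplatin arrays and at 4.37, 4.99, 4.84 and 4.21 on the controls, and since the altered part of the gene is not given, this does not check the label. In such bulk samples fewer cells of a type and less RNA per cell cannot be told apart.

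Cells build cholesterol from acetyl-CoA through mevalonate, squalene and lanosterol, and build fatty acids from the same precursor through malonyl-CoA. Both arms are driven by the SREBP transcription factors, which the escort protein SCAP carries from the endoplasmic reticulum to the Golgi for release by proteolysis when membrane sterol is low, while INSIG proteins hold them back when sterol is plentiful. SREBP-2, the product of Srebf2, acts mainly on sterol genes, usually together with the CCAAT-binding factor NF-Y, and dividing cells such as ES cells draw on both arms for new membrane.

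After cisplatin, 3 genes of the fatty acid arm fell, and 16 of the 17 sterol genes did not pass the test. Acaca, the carboxylase that commits acetyl-CoA to fatty acid synthesis, fell by 0.42 ± 0.07 (log2 fold change ± SE, 4 arrays against 4), the acyl-CoA synthetase gene Acsl3 fell by 0.35 ± 0.06 and the elongase gene Elovl6 fell by 0.21 ± 0.06. In the sterol arm only the sterol carrier gene Stard4 passed the test, with a rise of 0.19 ± 0.06. Thus 4 of the 26 genes passed limma's test at an adjusted p under 0.05, 1 higher and 3 lower, against 19.3% of all genes tested and 27.5% of the genes above background in a group. The groups did not overlap for 7 of the 26 genes, against 24.3% of all genes.

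**Figure D1:**
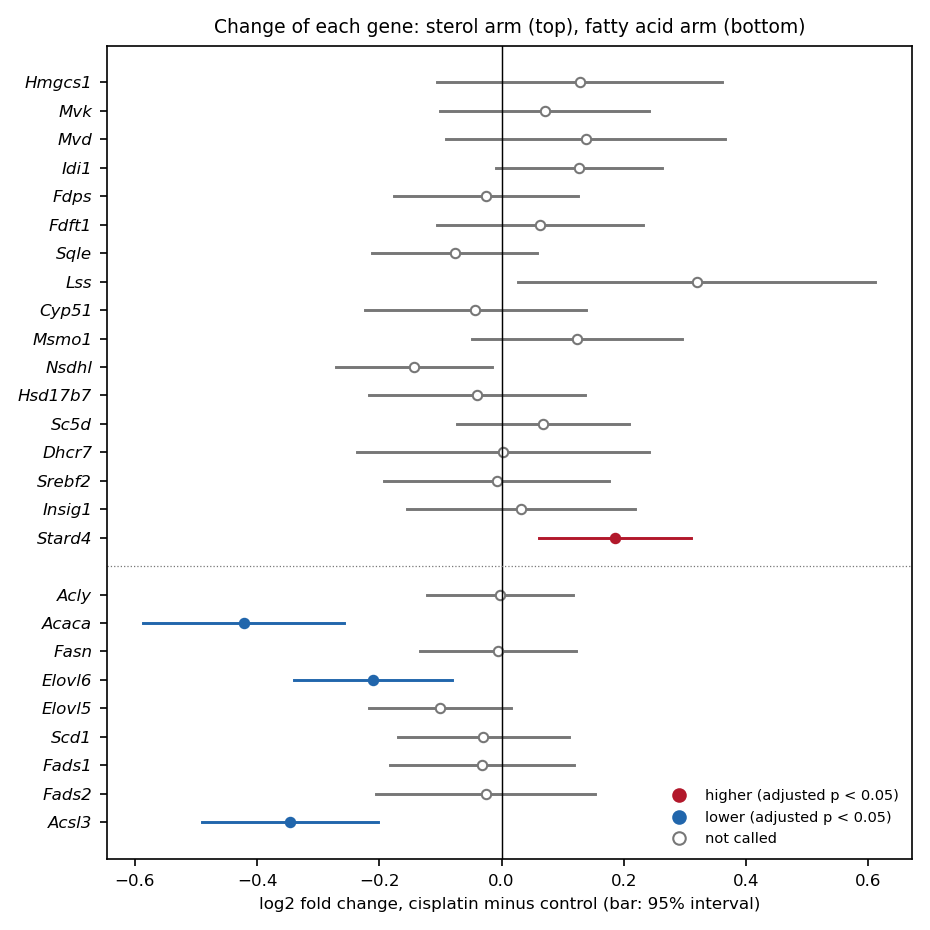
The plot gives the log2 fold change of each gene, cisplatin minus control, as a point with its 95% interval, with the sterol arm above and the fatty acid arm below the dotted line. Acaca, Elovl6 and Acsl3 lie left of 0 and Stard4 right of it (filled points), and the remaining 22 genes did not pass the test (open points).

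The sterol arm had 1 of 17 genes higher and none lower by limma, against 11.6% higher and 7.69% lower among all genes. At an unadjusted p under 0.05 there were 3 of 17, Stard4, Lss and Nsdhl, against 31% of all genes. The median change of the arm was 0.06 beside 0.01 over all genes. When each array was centred on its own median, which lowers every change by 0.13, the arm median became -0.068 beside -0.12 over all genes. Of the 16 genes that did not pass, 10 had a 95% interval that stayed within 0.25 on either side of no change and 15 within 0.4, so that changes above this size were outside the interval for all but Lss. These intervals hold for the brightest probe set alone. Another probe set of Sc5d rose by 0.50 ± 0.07, and Hmgcs1 was read close to background.

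The promoters of these genes bear on what they share, since the sterol arm is the set that SREBP-2 and NF-Y are known to serve. Windows of 300 bases, from 250 before to 50 after the annotated start, were taken from RefSeq (GRCm38.p6) for the 20 measured genes that have one there. Both strands were searched for TCACNCCAC, a core of the sterol regulatory element, and for CCAAT, the NF-Y box. A CCAAT box lay in at least 1 window of all 13 sterol genes with a window and of 4 of 7 fatty acid genes, against 42.3% of the genes tested on the arrays. The sterol element was found in the window of Hmgcs1 alone, against 1.5% of the genes tested. Neither word says that a factor was bound there, and whether each annotated start is in use in these cells was not tested. The window of Hmgcs1 is shown because it holds both words and that of Mvk because it holds the most CCAAT boxes of the 20 genes, 5, with CCAAT (read as ATTGG on the opposite strand) and the sterol element in capitals. Mvk was chosen after the matches were seen.
Hmgcs1, chr13:119690101-119690400, + strand: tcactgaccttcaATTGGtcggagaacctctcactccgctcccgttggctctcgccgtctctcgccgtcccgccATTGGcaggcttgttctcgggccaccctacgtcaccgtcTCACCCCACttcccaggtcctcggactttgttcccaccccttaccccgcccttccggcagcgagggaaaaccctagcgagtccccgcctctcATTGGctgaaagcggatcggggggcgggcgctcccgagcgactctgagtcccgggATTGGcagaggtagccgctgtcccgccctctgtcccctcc
Mvk, chr5:114444019-114444318, + strand: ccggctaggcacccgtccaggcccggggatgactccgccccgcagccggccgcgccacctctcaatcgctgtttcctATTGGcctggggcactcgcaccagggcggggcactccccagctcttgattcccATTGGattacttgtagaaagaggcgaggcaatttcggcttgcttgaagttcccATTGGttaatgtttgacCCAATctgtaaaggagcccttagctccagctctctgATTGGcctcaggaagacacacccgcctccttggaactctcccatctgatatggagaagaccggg
In Hmgcs1 the sterol element began 137 bases before the start and did not overlap any of the 4 CCAAT boxes.

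Genes of the mevalonate steps did not pass the test. Hmgcs1, which makes HMG-CoA, has only a dim probe set listed with it, and whether any probe set without a listed gene reads it is not known. It stood at a mean of 4.02 ± 0.16 on the cisplatin arrays and 3.89 ± 0.18 on the control arrays (SD, n = 4 each), close to the level of background probes. The mevalonate kinase gene Mvk was at 0.07 ± 0.08 and the decarboxylase gene Mvd at 0.14 ± 0.10. Idi1, whose product isomerises the isoprene unit, stood at 10.11, 10.13, 10.27 and 10.09 with cisplatin and at 10.08, 10.02, 9.93 and 10.06 in the controls. Its groups did not overlap, but the change of 0.13 ± 0.06 did not pass (adjusted p = 0.191). The farnesyl diphosphate synthase gene Fdps was at -0.03 ± 0.07 and the squalene synthase gene Fdft1 at 0.06 ± 0.08.

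From squalene to cholesterol the genes lay on both sides of no change. Sqle, which encodes the oxygen-dependent squalene epoxidase, was at -0.08 ± 0.06. Lss, the lanosterol synthase gene, had the largest difference of the arm, 0.32 ± 0.13, with an adjusted p of 0.127. It read 5.82, 5.94, 6.27 and 5.52 on the cisplatin arrays, against 5.59, 5.51, 5.65 and 5.52 on the controls. Replicate 6 of the cisplatin group thus lay among the controls while the other 3 lay above them, and without that array Lss passed the test at 0.44 (adjusted p = 0.0191).

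The lanosterol demethylase gene Cyp51 was at -0.04 ± 0.08, and Msmo1 and Hsd17b7, which act in the later demethylation steps, were at 0.12 ± 0.08 and -0.04 ± 0.08. Nsdhl, a dehydrogenase of the same steps, read 8.22, 8.22, 8.23 and 8.10 with cisplatin and 8.38, 8.32, 8.25 and 8.40 in the controls. All 4 cisplatin values lay below all 4 control values, yet the difference of -0.14 ± 0.06 did not pass (adjusted p = 0.118) except after centring or when genes below the brightest background class were left out (adjusted p = 0.0112 and 0.0462). Centring also put Sqle past the threshold, at -0.21 (adjusted p = 0.0331). The last reductase gene of the pathway, Dhcr7, was at 0.00205 ± 0.11.

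The desaturase gene Sc5d depended on the probe set. Its brightest probe set stood at 7.85 ± 0.05 with cisplatin and 7.78 ± 0.10 in the controls, a change of 0.07 ± 0.06 that did not pass. A dimmer one read 5.72 ± 0.05 with cisplatin and 5.21 ± 0.12 in the controls, a rise of 0.50 ± 0.07 (adjusted p = 0.000878 over all 28898 probe sets with 1 gene), and a last one lay below background. Whether the transcript of Sc5d changed is therefore not settled by these arrays.

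Srebf2 and Insig1, the regulators listed in the arm, did not pass the test. Other regulators of SREBP, Scap, Mbtps1 and Mbtps2, were called and are given with the neighbouring lists below. Srebf2 stood between 6.75 and 7.04 on the cisplatin arrays and between 6.79 and 7.08 on the controls, with a 95% interval of the change from -0.19 to 0.18. Insig1, itself a sensitive SREBP target, was at 8.54, 8.71, 8.91 and 8.59 with cisplatin and at 8.63, 8.62, 8.77 and 8.60 in the controls, with an interval from -0.16 to 0.22. Neither gene separated the groups. Stard4, which encodes a cytosolic sterol carrier, read 7.93, 7.96, 8.06 and 7.93 with cisplatin and 7.74, 7.75, 7.78 and 7.88 in the controls. Its groups did not overlap and its rise of 0.19 ± 0.06 passed (adjusted p = 0.0432), but the call was lost in 11 of the 17 alternatives. Among these were centring, which left a change of 0.05, and the omission of any array but control 6 (adjusted p from 0.0607 to 0.111). Among its other probe sets the changes were 0.17 and 0.02.

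**Figure D2:**
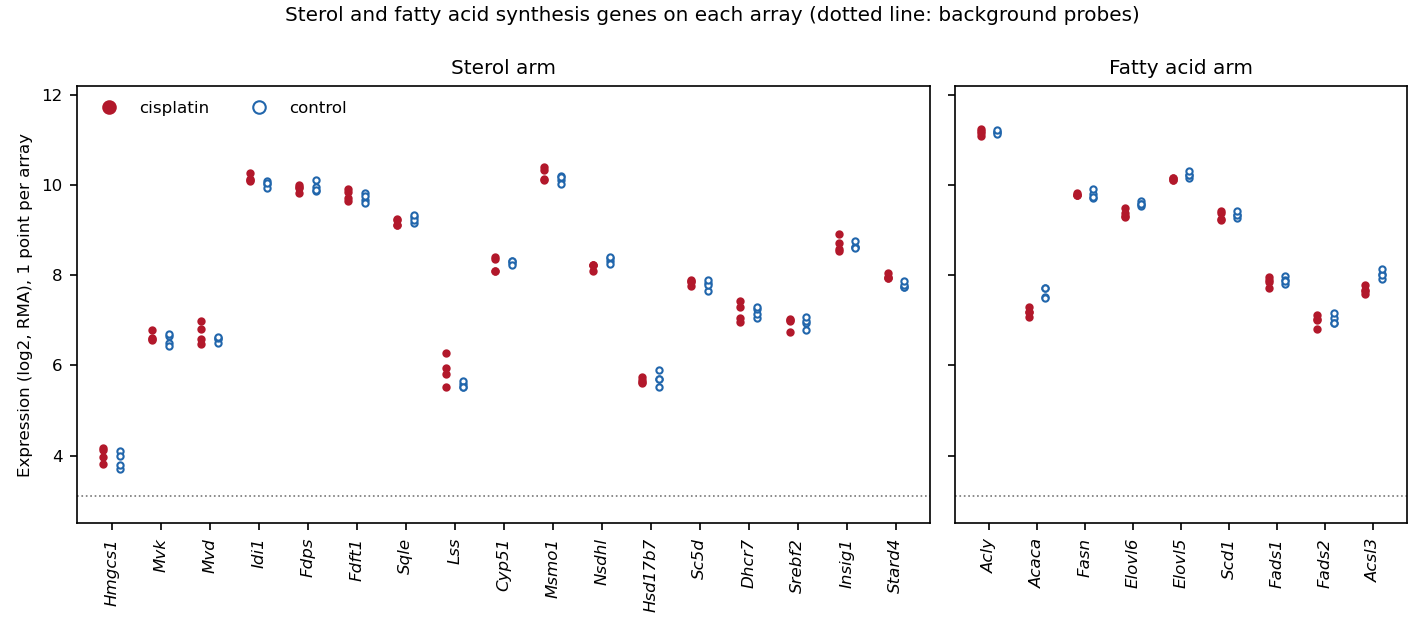
The plot shows the log2 level of each gene on every array, with the 4 cisplatin arrays as filled points left of the 4 control arrays as open points, and the dotted line at the 3.10 of background probes. Within most genes the groups overlap, Acaca and Acsl3 lie lower with cisplatin, and Hmgcs1 is the dimmest gene, closest to the background line.

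The fatty acid arm had 3 of 9 genes lower and none higher by limma, against 7.69% lower and 11.6% higher among all genes and 10.9% lower among genes above background. The same 3 genes had an unadjusted p under 0.05, as did 31% of all genes. The change was below 0 for each of the 9 by its brightest probe set, but for Fasn, Acly, Scd1, Fads1 and Fads2 it turned above 0 in 1 to 4 of the 17 alternatives, among them the omission of cisplatin 6 for all but Fasn (0.03 for Acly and Fads2). The median change was -0.03. The difference between the arms was not tested.

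Acaca stood at 7.19, 7.30, 7.19 and 7.07 on the cisplatin arrays and at 7.53, 7.71, 7.49 and 7.71 on the controls. The groups did not overlap, and the change of -0.42 ± 0.07, or 1.34-fold lower, had an adjusted p of 0.00296. Acsl3, which activates fatty acids at the endoplasmic reticulum and lipid droplets, read 7.66, 7.68, 7.78 and 7.57 with cisplatin and 7.93, 8.02, 8.01 and 8.13 in the controls, again with no overlap (-0.35 ± 0.06, adjusted p = 0.00433). All 3 probe sets of Acsl3 were lower, at -0.35, -0.40 and -0.77. Acaca and Acsl3 passed the test in each of the 17 alternatives, with changes between -0.55 and -0.30 and between -0.77 and -0.31.

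Elovl6, which lengthens saturated and monounsaturated chains, read 9.33, 9.49, 9.30 and 9.39 with cisplatin and 9.55, 9.64, 9.58 and 9.57 in the controls. Every cisplatin value lay below every control value, and the change of -0.21 ± 0.06 had an adjusted p of 0.0289. Another probe set fell by 0.35 ± 0.06 and a dim one was at -0.09 ± 0.13. Leaving out 1 array ended the call for 6 of the 8, all but cisplatin 4 and control 6 (adjusted p from 0.0510 to 0.0785), as did the most variable probe set (adjusted p = 0.716). Elovl5, an elongase of polyunsaturated chains, lay between 10.12 and 10.16 with cisplatin and between 10.17 and 10.32 in the controls. That change of -0.10 ± 0.05 did not pass (adjusted p = 0.228), except after centring (-0.23, adjusted p = 0.0149).

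Of the 3 genes that fell, neither word was found in the windows of Acaca and Elovl6, and that of Acsl3 held 1 CCAAT box, in capitals. The bases just before the annotated start of Acaca have the form of an intron's end, so that window may not be a promoter. Its lack of both words thus says nothing about the promoter of Acaca. Each of these genes had 1 window, so words at any other start were not searched for. The 3 windows are shown beside the sterol windows above, in the same RefSeq build.
Acaca, chr11:84195188-84195487, + strand: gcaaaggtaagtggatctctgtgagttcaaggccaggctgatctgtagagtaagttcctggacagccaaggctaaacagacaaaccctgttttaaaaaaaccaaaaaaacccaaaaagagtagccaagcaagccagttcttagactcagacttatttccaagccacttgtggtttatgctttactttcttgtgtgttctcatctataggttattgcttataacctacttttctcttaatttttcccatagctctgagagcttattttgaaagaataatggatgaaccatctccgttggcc
Acsl3, chr1:78657575-78657874, + strand: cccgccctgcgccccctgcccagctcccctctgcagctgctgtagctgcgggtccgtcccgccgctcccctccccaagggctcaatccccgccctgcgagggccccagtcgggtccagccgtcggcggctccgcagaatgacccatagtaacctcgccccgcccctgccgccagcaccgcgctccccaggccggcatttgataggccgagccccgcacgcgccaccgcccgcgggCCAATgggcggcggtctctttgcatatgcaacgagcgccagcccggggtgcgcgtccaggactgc
Elovl6, chr3:129532136-129532435, + strand: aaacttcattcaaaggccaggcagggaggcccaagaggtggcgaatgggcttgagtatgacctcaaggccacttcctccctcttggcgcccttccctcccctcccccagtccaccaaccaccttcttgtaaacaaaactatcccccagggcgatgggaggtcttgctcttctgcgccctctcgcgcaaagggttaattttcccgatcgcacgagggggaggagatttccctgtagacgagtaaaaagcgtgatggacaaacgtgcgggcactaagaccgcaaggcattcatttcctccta

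Acly, Fasn, Fads1 and Fads2, which also belong to the arm, were close to no change by their brightest probe sets. Acly, which makes cytosolic acetyl-CoA from citrate for both arms, lay between 11.08 and 11.24 on the cisplatin arrays and between 11.14 and 11.21 on the controls. Fasn, the fatty acid synthase gene, read 9.77, 9.78, 9.82 and 9.79 with cisplatin and 9.81, 9.72, 9.73 and 9.92 in the controls, with a 95% interval of the change from -0.13 to 0.12. The values of both genes overlapped between the groups. The front-end desaturase genes Fads1 and Fads2 were at -0.03 ± 0.07 and -0.03 ± 0.08.

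The stearoyl-CoA desaturase gene Scd1 was read differently by its 2 probe sets. The brighter one stood at 9.31 ± 0.10 with cisplatin and 9.34 ± 0.06 in the controls, a change of -0.03 ± 0.06. The dimmer one stood at 6.37 ± 0.10 with cisplatin and 6.81 ± 0.11 in the controls, a fall of 0.44 ± 0.08 on the log2 scale (adjusted p = 0.00287 over all probe sets). Of the 17 genes with more than 1 probe set, Sc5d and Scd1 were the 2 for which another probe set was called while the brightest was not, and for no gene were probe sets called in both directions.

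**Figure D3:**
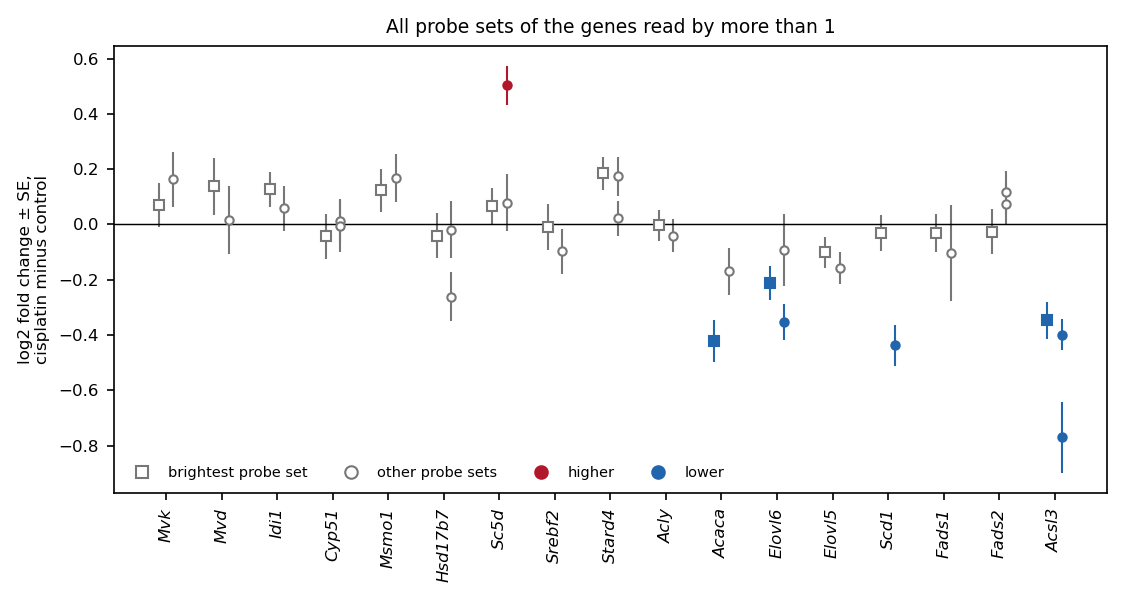
The plot gives the log2 fold change ± SE of every probe set of the 17 genes read by more than 1, with squares for the brightest and circles for the others, filled where the adjusted p over all 28898 probe sets was under 0.05. The 3 probe sets of Acsl3 all lie below 0, while those of Sc5d and Scd1 part. Stard4, called over genes, just misses the threshold over probe sets.

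In both groups single arrays were often the highest or lowest over the genes of the 2 arms. Replicate 6 was the lowest of the 4 cisplatin arrays for 11 of 17 sterol genes and 6 of 9 fatty acid genes, whereas replicate 4 or 5 was the highest for 8 and 7 of the sterol genes. Among the controls, replicate 6 was the highest for 9 of 17 sterol genes and 6 of 9 fatty acid genes. The mean over the sterol arm was 7.80, 7.92, 7.93 and 7.72 on the cisplatin arrays and 7.78, 7.77, 7.79 and 7.81 on the controls. Over the fatty acid arm it was 8.83, 8.88, 8.88 and 8.75 with cisplatin, against 8.95, 8.96, 8.92 and 9.04 in the controls. The median of replicate 6 over all genes, 4.70, lay within the 4.63 to 4.72 of the cisplatin arrays, and its Actb 3′ minus 5′ difference of 0.52, a measure of RNA integrity, lay near the 0.52 to 0.53 of the other 3. Without it the median change was 0.08 in the sterol arm and -0.00455 in the fatty acid arm.

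**Figure D4:**
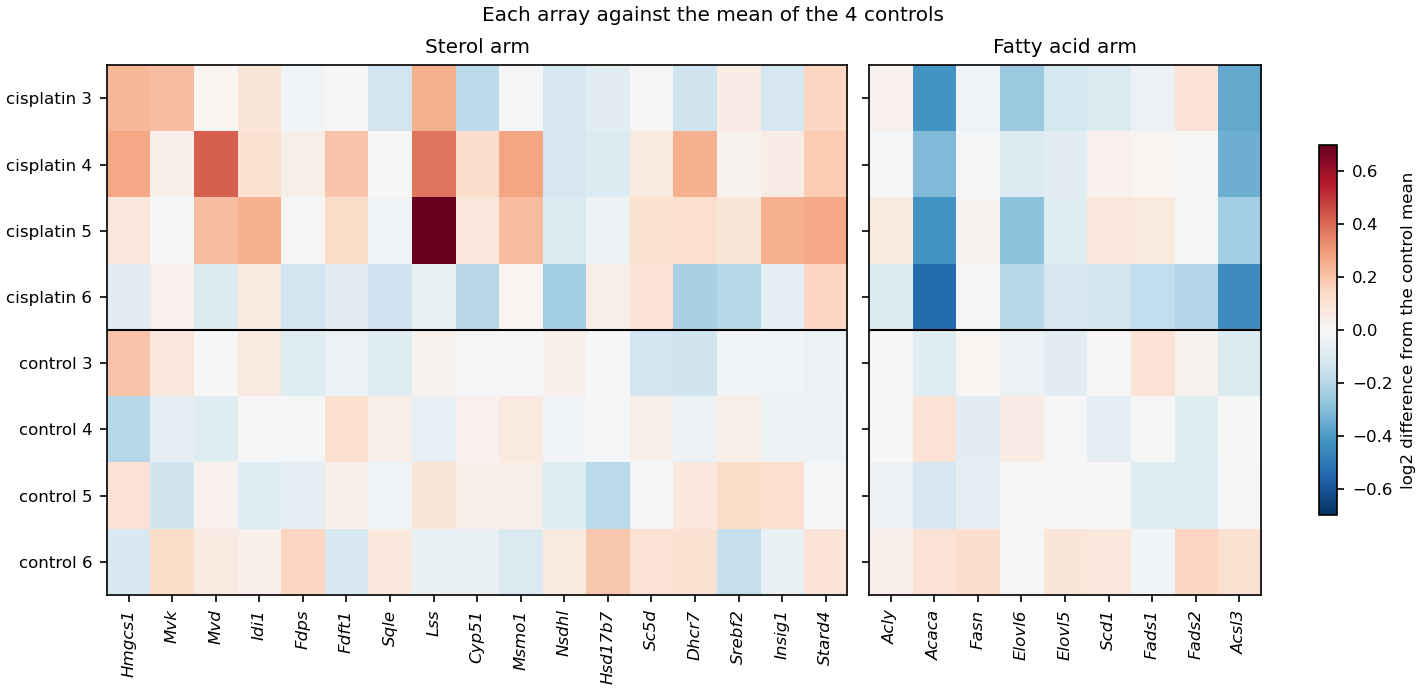
Each cell gives the log2 difference of a gene on 1 array from the mean of the 4 controls, with cisplatin arrays above control arrays. Acaca and Acsl3 are lower on all 4 cisplatin arrays, while the sterol genes are mostly higher on cisplatin arrays 4 and 5 than on array 6.

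Genes of lipid supply outside the 2 arms were read from 4 textbook lists. In all, 91 of 111 genes were measured, of which 22 were higher and 4 lower by limma, against 11.6% and 7.69% of all genes. Among genes above background in a group, 16.6% were higher and 10.9% lower. Called genes made up 28.6% of the 91, near the 27.5% of genes above background. Centring, which turns the calls over all genes from 60.2% higher to 21.7% higher, left 11 higher and 19 lower. The genes Scap, Lbr, Elovl2, Mlxipl, Aacs, Acacb, Lpin1, Abhd5, Plin2 and Ppargc1b were called in the same direction in all 17 alternatives, and Cyp27a1 in the 16 that tested it.

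In the list of remaining sterol synthesis, control and transport genes 2 of 18 were higher and 3 lower, with a median of -0.08. Called genes made up 27.8% of this list, against 19.3% of all genes and 27.5% of those above background in a group. Scap, the SREBP escort, read 7.10, 7.40, 7.29 and 7.26 with cisplatin and 6.57, 6.73, 6.74 and 6.75 in the controls. The groups were well apart, with a rise of 0.57 ± 0.07, or 1.48-fold (adjusted p = 0.000534). Mbtps1 and Mbtps2, the genes of the proteases that cut SREBP in the Golgi, were lower by limma at -0.18 ± 0.05 and -0.24 ± 0.07 (adjusted p = 0.0359 and 0.0430). Those calls were lost in 8 and 10 of the 17 alternatives, among them the omission of any single array but cisplatin 6 for Mbtps1 and but control 6 for Mbtps2, with adjusted p up to 0.0911 and 0.171. Lbr, a sterol reductase that also anchors lamin, fell by 0.28 ± 0.05, and Npc2, which hands on cholesterol in lysosomes, rose by 0.32 ± 0.06 (adjusted p = 0.00635), though not after centring (adjusted p = 0.0595). The NF-Y subunit genes Nfya, Nfyb and Nfyc did not pass, at -0.08 ± 0.06, 0.09 ± 0.05 and -0.17 ± 0.06.

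Among the genes of sterol export and of the oxysterol receptor LXR, 3 of 17 were higher and none lower. Called genes made up 17.6% of this list, against 19.3% of all genes and 27.5% of those above background in a group. The median change of the list was 0.10, and 5 of 17 had an unadjusted p under 0.05, against 31% of all genes. The exporter gene Abcg1, a known LXR target, lay between 7.06 and 7.52 with cisplatin and between 6.86 and 7.01 in the controls (0.41 ± 0.10, adjusted p = 0.0152). Mylip, another LXR target, which encodes a ubiquitin ligase for lipoprotein receptors, rose by 0.34 ± 0.09 (adjusted p = 0.0214). The sterol hydroxylase gene Cyp27a1, dim at 3.73 ± 0.19 with cisplatin and 3.30 ± 0.13 in the controls, rose by 0.43 ± 0.10. After centring Abcg1 and Mylip no longer passed (adjusted p = 0.0532 and 0.101), and Mylip also missed on leaving out cisplatin 5, control 3 or control 4. Nr1h3, which encodes a form of LXR, was near background, at a mean of 3.20 ± 0.14 on the cisplatin arrays and 3.21 ± 0.08 on the control arrays. Levels of any other form of LXR are not reported here.

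Of the remaining fatty acid synthesis genes 11 of 32 were higher and none lower. Among all genes 11.6% were higher and 7.69% lower, and among those above background in a group 16.6% and 10.9%. The median change of this list was 0.08, and 14 of 32 had an unadjusted p under 0.05, against 31% of all genes. Elovl2, which lengthens very long polyunsaturated chains, read 6.43, 6.40, 6.86 and 6.46 with cisplatin and 5.40, 5.37, 5.64 and 5.30 in the controls. No values overlapped, and the rise of 1.11 ± 0.11 was 2.16-fold (adjusted p = 0.000139). Mlxipl, the carbohydrate-responsive transcription factor ChREBP, stood at 5.36 ± 0.11 with cisplatin and 4.56 ± 0.17 in the controls (0.80 ± 0.09, adjusted p = 0.000250). Acacb, the mitochondrial relative of Acaca, read 6.07, 6.50, 6.19 and 6.22 with cisplatin and 5.51, 5.87, 5.80 and 5.77 in the controls, a rise of 0.50 ± 0.10 (adjusted p = 0.00763). So the 2 carboxylase genes were called in opposite directions, as were Elovl6 against Elovl2 and Elovl1, the last at 0.42 ± 0.07. These pairs were picked after their values were seen, and the differences within them were not tested.

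The list held 7 more higher genes. Aacs, the acetoacetyl-CoA synthetase gene, rose by 0.56 ± 0.08, Pnpla3 by 0.50 ± 0.15 and Thrsp by 0.44 ± 0.12. For Pnpla3 and Thrsp the groups overlapped, and both calls ended after centring and on leaving out cisplatin 3 or 6 or control 4 or 5, with control 6 added for Pnpla3 and control 3 for Thrsp (adjusted p up to 0.0938 and 0.0812). The mitochondrial fatty acid synthesis genes Mecr and Cbr4 rose by 0.34 ± 0.10 and 0.28 ± 0.07, and the cytochrome b5 system genes Cyb5a and Cyb5r3, which pass electrons to desaturases, by 0.20 ± 0.05 and 0.18 ± 0.06. Centring ended the calls of Mecr, Cbr4, Cyb5a and Cyb5r3. Single omissions also ended those of Mecr (any array but cisplatin 3 and control 4), Cbr4 (cisplatin 4 or 5, control 3) and Cyb5r3 (any but cisplatin 6). Other choices of probe set ended the call of Cyb5r3 too (adjusted p up to 0.539), and leaving out the x and s probe sets ended that of Elovl1 (adjusted p = 0.0698). The list's Me1, Slc25a1 and Acss2, which supply reducing power, citrate and acetyl-CoA, did not pass, at 0.03 ± 0.05, -0.06 ± 0.07 and -0.07 ± 0.10.

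In the glycerolipid and lipid droplet list 6 of 24 genes were higher and 1 lower, with a median of 0.06. Called genes made up 29.2% of this list, against 19.3% of all genes and 27.5% of those above background in a group. Lpin1, a phosphatidate phosphatase gene, read 6.50, 6.98, 7.07 and 6.72 with cisplatin and 5.59, 5.91, 5.78 and 5.31 in the controls, a rise of 1.17 ± 0.15, or 2.25-fold (adjusted p = 0.000517). Abhd5, a co-activator of lipolysis, read 6.91, 7.15, 7.09 and 6.89 with cisplatin and 5.96, 6.38, 6.05 and 5.83 in the controls, a rise of 0.96 ± 0.11. Both genes were higher on every cisplatin array than on any control. The droplet coat gene Plin2 rose by 0.35 ± 0.05, the nuclear receptor gene Ppard by 0.49 ± 0.12 and the acyltransferase genes Agpat5 and Agpat4 by 0.30 ± 0.06 and 0.23 ± 0.06, while the co-activator gene Ppargc1b fell by 0.64 ± 0.10 on the log2 scale. Centring ended the calls of Agpat5 and Agpat4, other choices of probe set ended that of Agpat4, and the mean of the probe sets that of Ppard (adjusted p = 0.152). The triglyceride synthesis genes Dgat1, Dgat2 and Gpam did not pass, at -0.02 ± 0.07, -0.03 ± 0.13 and 0.06 ± 0.07.

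**Figure D5:**
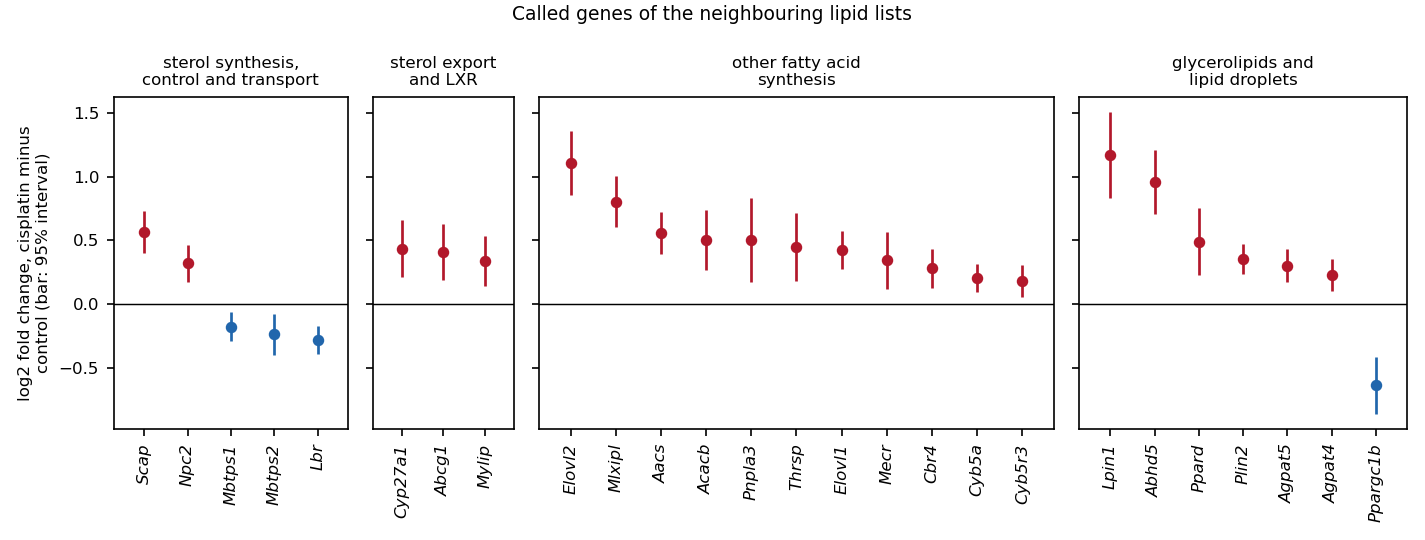
The plot gives the log2 fold change, cisplatin minus control, with its 95% interval for the 26 called genes of the 4 neighbouring lists. Elovl2 and Lpin1 lie above 1, and the 4 genes below 0 are Mbtps1, Mbtps2, Lbr and Ppargc1b. After centring 11 of the 22 higher genes still passed the test.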

How the data were processed

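Expression was measured in 8 samples, 1 array each. The authors deposited log2 expression values per probe set, made with RMA per the submitters' processing notes, which also name limma. RMA brings the probes of all arrays to a common distribution, which takes out a shift shared by most transcripts. The version of RMA is not given in the sources used here.

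Of 45141 probe sets (104 controls), 28898 have 1 annotated gene and 551 several; the others were unnamed here. For each of 17098 genes the probe set with the highest mean was used, and 16937 of these matched a current RefSeq symbol (GRCm38.p6). Groups follow the sample titles. The test was limma's moderated one (version 3.58.1 under R 4.3.3; lmFit and eBayes, with no term besides group), its p-values were adjusted by Benjamini-Hochberg over all genes, and the threshold was 0.05. Intervals are 95% intervals of that fit, and the number of arrays limits the precision. Background is the level of probes with 24 G or C among 25 bases, at 3.10. Probe sets were also fitted over all 28898. The fit was tested on simulated data. Figures used matplotlib 3.10.9.

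The members and lists were chosen with earlier results of these data known. All members are named, and of the 4 neighbouring lists every called gene and the 3 with the smallest p, which were all called; others named there (the NF-Y subunits, Nr1h3, Me1, Slc25a1, Acss2, Dgat1, Dgat2, Gpam) were chosen after their values were seen, as were the promoter windows shown beside that of Hmgcs1, which is shown as the member window with the sterol element. Some genes of these pathways are not reported here. Alternatives covered the probe set, dim genes, normalization, centring, an intensity trend, a replicate block and each array left out.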

Additional observations from a re-analysis of the deposited data

Results flagged for a closer look

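In 2 of the 52 groups of 4 arrays, 1 array stood far from the other 3 relative to the range of the group; chance gives about 1 in 20 groups. Mvk read 6.78 on cisplatin array 3, against 6.57 to 6.60 on the other cisplatin arrays. Nsdhl read 8.10 on cisplatin array 6, against 8.22 to 8.23 on the other cisplatin arrays.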

How the results depend on the processing

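Of 441 recomputed member results over 17 alternatives, 414 kept their side of the threshold, 18 lost a call (Stard4 and Elovl6), 9 gained one and none of the called genes changed direction. Centring each array on its median lowers every change by 0.13. It gave 0 sterol arm genes higher and 2 lower (median -0.068). The fatty acid arm median became -0.16, and the median over all genes -0.12. Among the neighbouring genes 11 were then higher and 19 lower. The mean of the probe sets moved the fatty acid median to -0.13, with Scd1 then called (-0.23, adjusted p = 0.0159), and the cause was not tested. Leaving out genes below the brightest background class (25 G or C, 4.89), which drops Hmgcs1, gave 1 sterol gene lower and 8 neighbouring genes lower. It also refitted the test on fewer genes, and the cause was not tested. The class of 24 G or C, chosen after seeing the data, changed no arm count by more than 1.5 times. The intensity trend gave 7 neighbouring genes lower, and the cause was not tested. With each array left out in turn, 0 to 1 sterol genes were higher (the 1 without cisplatin replicate 6 is Lss, not Stard4), 2 to 3 fatty acid genes lower, and 2 to 5 neighbouring genes lower, the 2 on leaving out cisplatin 3, 4, 5, control 3 or control 5. The replicate block gave 0 sterol genes higher (Stard4, adjusted p = 0.0673) and changed no other member's call; among the neighbouring genes it ended the calls of Mbtps1 and Cyb5r3. Same-numbered arrays of the 2 groups correlated at 0.20, 0.18, 0.20 and 0.06 in their deviations from the group means. Differently numbered arrays lay between -0.17 and 0.11, the 0.11 for control 6 with cisplatin 3. Replicates 3, 4 and 5 thus correlated best with their own number, and control 6 did not. Whether the numbers mark pairs is not settled by these values. The main test had no pair term, and the replicate block gives the result with one. Signal over background limits Hmgcs1.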

Other observations

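The genes of both arms were mostly short in the RefSeq annotation (GRCm38.p6). Acaca spans 272 kb and Elovl6 106 kb, and these were the 2 members over 100 kb; the other 24 span 6.79 to 67.2 kb. Acsl3, the remaining gene that fell, spans 49.9 kb, and Stard4, which rose, 14.7 kb. Whether length bears on the changes was not tested.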
